A study of Mus musculus with 7 samples.

Results

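The genes described here are 9 markers of proximal luminal and progenitor cells of the mouse prostate: Psca, Ly6a, Ly6d, Clu, Wfdc2, Tspan1, Crip1, Cd24a and Cd44. They were found through the RefSeq accession of each array probe, which gave 12 probes of 41174 and 9 genes of 17016 named genes on the array. Tspan1 had 2 probes, Cd44 had 3 and each other gene had 1. All 9 genes were bright enough to be tested.

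The prostate gland is lined by luminal cells, which secrete, and by basal cells, which lie under them. Luminal cells near the urethra carry surface and secreted proteins that are low in the distal secretory cells, and several of these proteins are used to sort cells that regrow prostate tissue. The names cover proteins of different places in the cell. Psca, Ly6a, Ly6d and Cd24a are anchored to the outer membrane by a lipid, Cd44 and Tspan1 span the membrane, Clu and Wfdc2 are secreted, and Crip1 is a small protein inside the cell.

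RNA came from 7 prostate samples of mice of the C57Bl/6 strain. The 3 PB-NICD samples carried ARR2PB-Cre and ROSA(N1IC). The Cre recombinase is driven by a probasin-based promoter that is active in prostate epithelium, and it switches on the intracellular domain of Notch1, the part of the receptor that acts in the nucleus, from the ROSA locus. The labels describe prostatic intraepithelial neoplasia in this model. The 4 control samples carried ROSA(N1IC) and are labelled as wild-type for the domain, so both groups share the ROSA allele. The labels used here give no age, and they do not say whether a sample is 1 animal or a pool. P-values therefore measure the spread between these samples. Each sample was hybridised with a universal mouse reference RNA on an array of its own, with the sample always in the red channel. Each value below is the log2 of the sample signal over that of the reference.

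The sample channel was dim, with a median spot signal of 69 on the dimmest array over a median background of 53 to 55. Slide 1 held PB-NICD 1, control 1 and control 2, and slide 2 held the other arrays. Notch1, which checks the labels, had log2 ratios of 2.55, 2.68 and 2.82 in PB-NICD samples against 0.06, 0.35, 0.91 and 0.75 in control samples under plain subtraction. Its change was 2.24 in the planned limma fit (adjusted p = 0.00168). Svs4, a secretory protein of the seminal vesicle, was at 5.85, 0.77 and 0.73 in PB-NICD samples and at 2.56, 9.46, -0.02 and -0.33 in control samples, so its high values were on slide 1 in both groups. Its part in the results below was not tested.

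The planned background correction, normexp in limma, behaved differently on 1 array. On PB-NICD 1 its fitted background added 220.1 intensity units to the sample channel, against 8.14 to 22.4 on the other 6 arrays. The log2 ratios of PB-NICD 1 then had an SD of 0.555, against 0.841 under plain subtraction of the local background, and their correlation with the authors' deposited values was 0.828 against 0.991. With plain subtraction PB-NICD 1 correlated with the other PB-NICD arrays at 0.935 or more across probes. The planned fit had already been run, and the values of the genes had been seen under other settings, when plain subtraction was chosen. Keeping spots that the scanner software marks as uneven was paired with it, after it was seen that bright genes had lost values to that mark. Results of both fits are therefore given for each gene, and the fit by plain subtraction is not an independent test. In all, 39 settings were run, of which 14 were added after the values had been seen.

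In the planned fit, 1 of the 9 genes passed an adjusted p of 0.05. Cd24a was lower in PB-NICD prostates, and none was higher. At an unadjusted p below 0.05, limma put 5 genes lower and 1 higher, where the shares over all items were 11.8% and 3.02%. Psca and Wfdc2 are among the 5, at unadjusted p-values of 0.049 and 0.01. With plain subtraction and uneven spots kept, limma gave them 0.377 and 0.259. At the adjusted threshold, of all 16940 genes and unnamed transcripts tested, 2.27% were called lower and 0.401% were called higher. Each slide holds both groups, and with slide added to the planned fit as a fixed block Cd24a, Tspan1 and Cd44 were called lower and Crip1 higher, where 8.12% of all items were called in either direction. The same 4 genes were called with slide as a random block, where 6.09% of all items were. Cd24a and Tspan1 had 2 values in each group in these fits, which leaves little to estimate the spread within slides. Control 2 was the only Cd24a value on slide 1. The fixed block therefore set PB-NICD 2 and PB-NICD 3 against control 4 alone for Cd24a. With plain subtraction and uneven spots kept, Cd24a, Tspan1 and Cd44 were called lower and Crip1 was called higher, where the share over all 19553 items was 5.01% lower and 3.33% higher. With plain subtraction alone, Cd24a, Cd44 and Crip1 were called, and the shares over all items were 4.81% lower and 3.31% higher. Psca, Ly6a, Ly6d, Clu and Wfdc2 passed in none of these 3 fits. The median change of the 9 genes was -0.61 in the planned fit, where that of all items was -0.05, and -0.19 with plain subtraction, where it was -0.02.

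**Figure D1:**
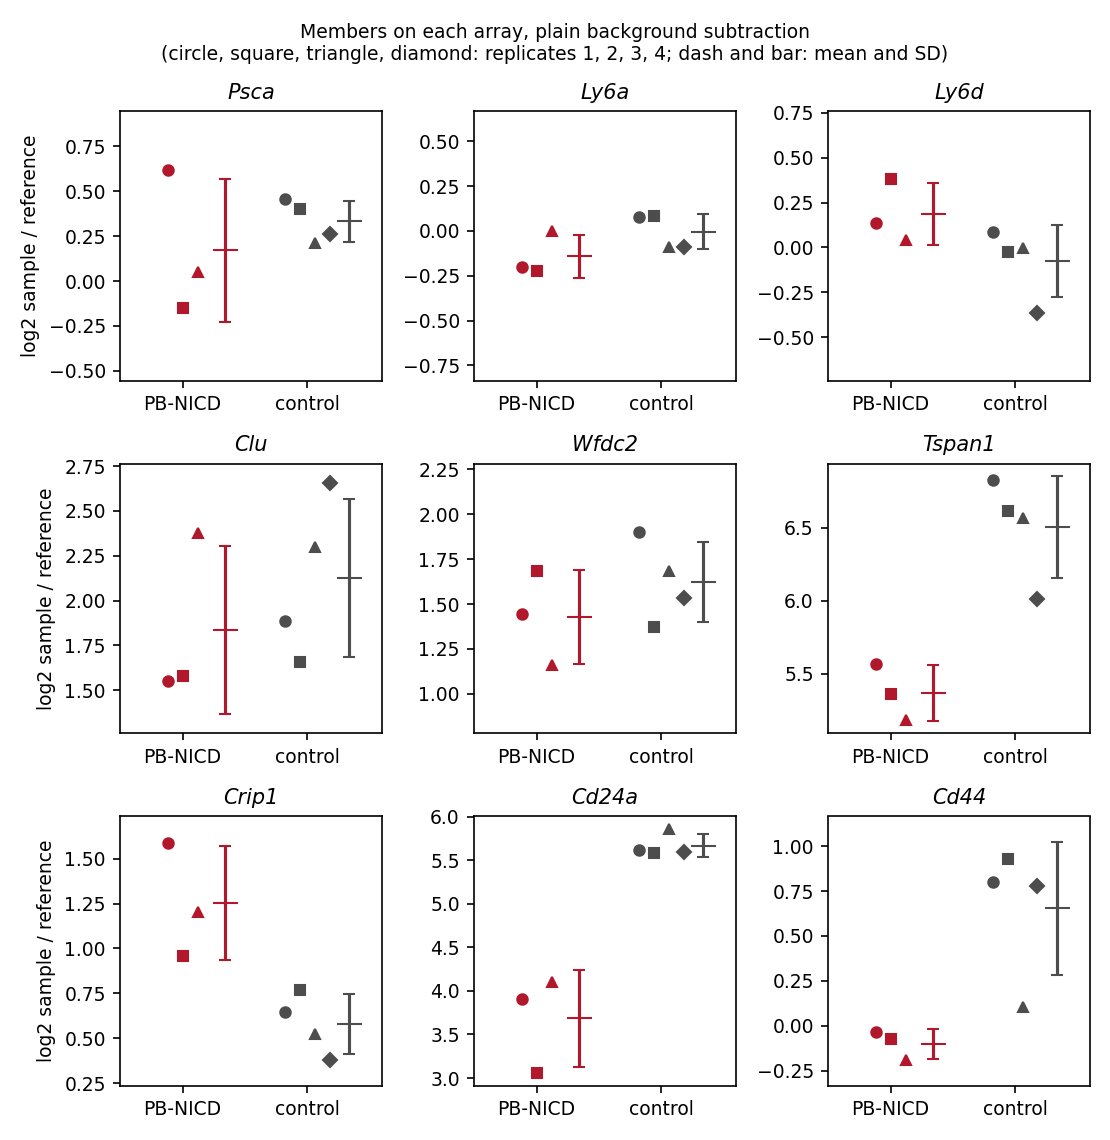
Log2 ratio of sample over reference for each gene on each of the 7 arrays, after plain background subtraction with uneven spots kept, with the mean and SD of each group beside the points (n = 3 PB-NICD and 4 control). The groups do not overlap for Tspan1, Cd24a and Cd44, which lie lower in PB-NICD samples, or for Crip1, which lies higher. Of all items in this fit, 12.2% do not overlap with PB-NICD lower and 7.99% with PB-NICD higher.

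The 250 bases before the start of Tspan1, Cd44 and Crip1 are shown because these genes passed with plain subtraction and uneven spots kept. Each also has an entry in the RefSeq promoter table of the GRCm38.p6 build, which held 4 of the 9 genes. The bases are written 5′ to 3′ on the strand of the gene. Capitals mark TGGGAA or its reverse complement TTCCCA, the core letters bound by Rbpj, the DNA-binding partner of the Notch1 domain.
Tspan1 (chr4:116167599-116167848, minus strand): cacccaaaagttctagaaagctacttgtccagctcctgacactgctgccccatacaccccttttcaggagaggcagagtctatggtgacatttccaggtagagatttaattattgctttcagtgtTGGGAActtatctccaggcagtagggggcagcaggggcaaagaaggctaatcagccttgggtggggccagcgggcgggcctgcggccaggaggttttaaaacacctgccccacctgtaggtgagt
Cd44 (chr2:102901666-102901915, minus strand): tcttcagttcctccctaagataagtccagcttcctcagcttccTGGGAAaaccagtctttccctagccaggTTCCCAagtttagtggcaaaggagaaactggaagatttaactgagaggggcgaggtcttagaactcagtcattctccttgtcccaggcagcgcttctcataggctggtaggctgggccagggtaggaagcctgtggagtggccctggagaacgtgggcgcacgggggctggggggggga
Crip1 (chr12:113151762-113152011, plus strand): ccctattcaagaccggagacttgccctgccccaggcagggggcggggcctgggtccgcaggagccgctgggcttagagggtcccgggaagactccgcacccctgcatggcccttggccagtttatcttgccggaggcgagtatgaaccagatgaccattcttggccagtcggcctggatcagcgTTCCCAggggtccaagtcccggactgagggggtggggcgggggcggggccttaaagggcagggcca

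The Rbpj core was found once before Tspan1, once before Crip1 and at 2 places before Cd44. It also occurred before Wfdc2, the fourth gene with an entry. Of 32851 windows of the same length, 21.6% held it on either strand. The short androgen receptor motif AGAACA, read on both strands, occurred in 16.1% of all windows and in none of these 4 genes. Tspan1 and Cd44 changed in the opposite direction to Crip1, and a match of letters is a description and not a binding site.

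Cd24a encodes a heavily glycosylated surface protein that is used with other markers to sort prostate epithelium. Its log2 ratios were 3.91, 3.05 and 4.10 in PB-NICD samples and 5.62, 5.58, 5.86 and 5.60 in control samples under plain subtraction. Every PB-NICD value lay below every control value, and the PB-NICD values were spread more widely. The change was -1.98 ± 0.22 (SE, adjusted p = 0.000338 in limma), or 3.94-fold lower. Such a lack of overlap, with PB-NICD lower, was found for 12.2% of all items in this fit. The planned fit left out PB-NICD 1, control 1 and control 3, whose spots are marked as uneven, and gave -1.998 ± 0.34 from 2 values in each group (adjusted p = 0.0391).

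Cd24a was called lower in all 14 added settings and in 15 of 22 other planned settings that gave it a value. Within slide 1 the change was -1.69 and within slide 2 it was -2.15 under plain subtraction. Slide 1 holds 1 PB-NICD array, which each within-slide test assumes to vary like the controls. In the planned fit the call was lost without control 1 or control 3, with adjusted p-values of 0.0655 and 0.0615 in limma. Neither array held a Cd24a value in that fit, so the Cd24a values were the same and only the fit over all items differed. Without control 2 or control 4 the call was also lost, but only 1 control value of Cd24a was left. The software's processed signals gave -1.997 with an adjusted p of 0.0531.

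Tspan1 encodes a tetraspanin, a membrane protein that gathers other proteins around it. The probe A_52_P61752 had log2 ratios of 5.57, 5.36 and 5.18 in PB-NICD samples and 6.83, 6.61, 6.57 and 6.01 in control samples. The second probe, A_51_P333923, had 6.53, 6.06 and 6.07 in PB-NICD samples and 7.79, 7.27, 7.26 and 6.85 in control samples. Neither probe overlapped between the groups, where 12.2% of all items did not overlap with PB-NICD lower. The changes were -1.14 (adjusted p = 0.00373) and -1.07 (adjusted p = 0.0106 over all probes) under plain subtraction in limma. The spots of A_52_P61752 are marked as uneven on PB-NICD 1, PB-NICD 2, control 1 and control 3. Without them this probe had 1 PB-NICD and 2 control values, so the planned fit did not test it. The planned fit gave -1.07 ± 0.21 for the second probe from 2 values in each group, and it did not pass (adjusted p = 0.0609). With slide as a fixed block this probe passed (adjusted p = 0.0200 in limma). That fit had 1 value of each group on each slide, which leaves little to estimate the spread.

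Tspan1 was called in 12 of the 14 added settings and in 5 of 21 other planned settings. These counts do not all rest on 1 probe. The planned fit used A_51_P333923, and plain subtraction with uneven spots kept used A_52_P61752. With median centring in place of loess under plain subtraction it was at -0.44 (adjusted p = 0.0933), and with plain subtraction and uneven spots left out at -0.76 (adjusted p = 0.0964). Within slide 1, with its 1 PB-NICD array, it was -1.16, and within slide 2 it was -1.02.

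Cd44 encodes the main surface receptor for hyaluronan, a sugar polymer of the matrix. Its brightest probe, A_51_P407053, had log2 ratios of -0.03, -0.08 and -0.19 in PB-NICD samples and 0.80, 0.93, 0.11 and 0.78 in control samples. Control 3 lay close to the PB-NICD samples, and the groups still did not overlap. Of all items, 12.2% did not overlap with PB-NICD lower. The change was -0.75 ± 0.18 under plain subtraction (adjusted p = 0.0297 in limma), or 1.69-fold lower. With median centring in place of loess it was -0.29 and did not pass, so its size depends on the scaling. The planned fit gave -0.72 ± 0.19 and did not pass (adjusted p = 0.0867), and with slide as a fixed block it passed (adjusted p = 0.0330).

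The other Cd44 probes also lay lower in every PB-NICD sample. A_52_P229536 had -1.50, -2.03 and -1.66 in PB-NICD samples and -0.66, -0.71, -0.999 and -0.76 in control samples, a change of -0.95 (adjusted p = 0.00321 in limma over all probes, of which 4.75% were called lower). Its spots are marked as uneven on PB-NICD 1, PB-NICD 3 and control 1. Without them 1 PB-NICD value was left, and the planned fit did not test this probe. Its sample signals were dim, at 96 to 167 in PB-NICD samples and 98 to 199 in control samples. A_52_P523459, printed at 10 spots, had -0.65, -0.83 and -0.73 in PB-NICD samples and -0.16, -0.19, -0.37 and -0.34 in control samples, a change of -0.47 (adjusted p = 0.0282 over all probes in limma). This probe was well above background on 1 of 3 PB-NICD arrays and 2 of 4 control arrays. The 3 probes carry the same transcript accession, and they are not independent samples. The files give no probe sequence, so which isoforms they read was not analysed here.

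The Cd44 call rested on every array but control 3. Under plain subtraction it was lost without PB-NICD 1, PB-NICD 2 or PB-NICD 3, at adjusted p-values of 0.0721, 0.0933 and 0.102. It was also lost without control 1, control 2 or control 4, at 0.0749, 0.0715 and 0.0757. Without control 3 the change was -0.94 (adjusted p = 0.00112). Within slide 1 it was -0.90 (adjusted p = 0.0475), where the only PB-NICD array is assumed to vary like the controls, and within slide 2 it was -0.58 (adjusted p = 0.212). Cd44 was called in 6 of 14 added settings, the one within slide 1 among them, and in 7 of 24 other planned settings.

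Crip1 encodes a small protein with a LIM domain, a zinc-binding fold that holds other proteins. Its log2 ratios were 1.59, 0.96 and 1.21 in PB-NICD samples and 0.65, 0.77, 0.52 and 0.38 in control samples. Every PB-NICD sample lay above every control sample, which was so for 7.99% of all items under plain subtraction. The change was 0.67 ± 0.16 (adjusted p = 0.0263 in limma), or 1.59-fold higher. The planned fit gave 0.69 ± 0.17 from 2 PB-NICD and 3 control values and did not pass (adjusted p = 0.100), and with slide as a fixed block it passed (adjusted p = 0.0226).

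Under plain subtraction the Crip1 call was lost without PB-NICD 1, PB-NICD 3, control 3 or control 4, at adjusted p-values of 0.0923, 0.0688, 0.0521 and 0.0692. Within slide 1, with its 1 PB-NICD array, the change was 0.88 (adjusted p = 0.0503) and within slide 2 it was 0.63 (adjusted p = 0.0639). It was called in 7 of 14 added settings and in 7 of 22 other planned settings. Of these planned settings, 3 used no normexp: no subtraction, the software's processed signals and the authors' deposited table. Crip1 was called higher and Cd44 lower in all 3, Cd24a lower in 2 and Tspan1 lower in 1. The share of all items called in either direction was 9.1% with no subtraction, 6.67% with the processed signals and 19.0% with the deposited table.

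**Figure D2:**
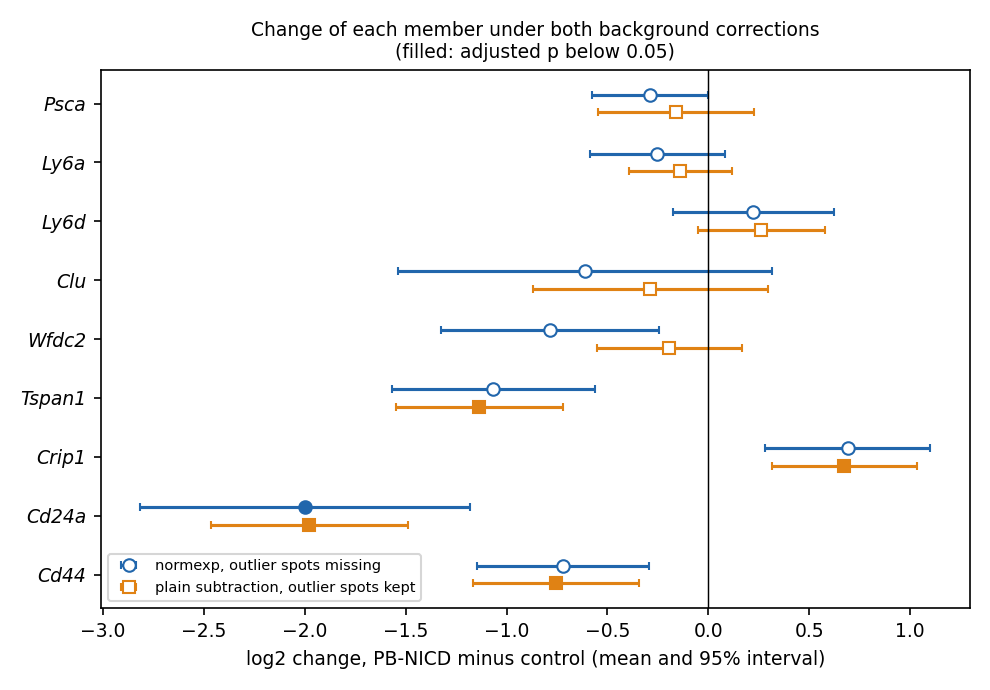
Change of each gene, PB-NICD minus control, on the log2 scale with its 95% interval, for the planned fit (circles) and for plain subtraction with uneven spots kept (squares). Filled marks have an adjusted p below 0.05, which holds for Cd24a in both fits and for Tspan1, Crip1 and Cd44 in the second. For Tspan1 the circle is the probe A_51_P333923 and the square is the probe A_52_P61752.

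Psca, Ly6a and Ly6d are small proteins of the Ly6 family, whose genes lie together on mouse chromosome 15. Psca, prostate stem cell antigen, had log2 ratios of 0.62, -0.15 and 0.05 in PB-NICD samples and 0.46, 0.40, 0.21 and 0.26 in control samples. The groups overlapped, with PB-NICD 1 above all controls and the other PB-NICD samples below them. The change was -0.16 with a 95% interval of -0.55 to 0.23 under plain subtraction (adjusted p = 0.663 in limma). It was -0.29 in the planned fit (adjusted p = 0.334).

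Ly6a, known as Sca-1, marks progenitor-enriched cells of the proximal ducts and also blood and endothelial cells. It had -0.20, -0.22 and -0.00 in PB-NICD samples and 0.08, 0.08, -0.09 and -0.09 in control samples. The groups overlapped, and the change was -0.14 with an interval of -0.39 to 0.11 (adjusted p = 0.548 in limma). With normexp it was -0.25 (adjusted p = 0.515).

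Ly6d marks luminal cells that survive castration. It had 0.14, 0.38 and 0.04 in PB-NICD samples and 0.09, -0.02, -0.00 and -0.36 in control samples. PB-NICD 3 lay below control 1, and the change was 0.26 with an interval of -0.05 to 0.58 (adjusted p = 0.322 in limma). With normexp it was 0.22 (adjusted p = 0.664).

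Scaling bore on these genes. With median centring in place of loess under plain subtraction, the median of all items moved to 0.31, and Ly6a was called higher at 0.53 (adjusted p = 0.0348) and Ly6d at 0.74 (adjusted p = 0.0143). In that setting 31.2% of all items were called in either direction. Relative to the median of all items, Ly6a was at 0.23 and Ly6d at 0.44, against -0.12 and 0.29 with loess. Psca, Clu and Wfdc2 were positive at 0.04, 0.08 and 0.05 and did not pass, and relative to that median they were lower, at -0.27, -0.23 and -0.26. Cd24a at -1.30 and Crip1 at 1.40 still passed, and Tspan1 at -0.44 and Cd44 at -0.29 did not. Relative to the median of all items, Tspan1 was at -0.75 and Cd44 at -0.60, against -1.11 and -0.73 with loess. In the planned fit with median centring, 1 item passed and no member did.

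Clu, clusterin, is a secreted chaperone that rises in the prostate after castration. It had 1.55, 1.58 and 2.38 in PB-NICD samples and 1.89, 1.66, 2.30 and 2.65 in control samples. The spread within each group was wider than the distance between them, with an interval of -0.87 to 0.29 around -0.29 (adjusted p = 0.596 in limma). With normexp it was -0.61 (adjusted p = 0.593), with PB-NICD 1 at 0.40. Clu passed in 1 of the other planned settings, within slide 1, where that value stands alone.

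Wfdc2 is a secreted protein with whey acidic protein domains. It had 1.45, 1.68 and 1.16 in PB-NICD samples and 1.90, 1.37, 1.69 and 1.54 in control samples. The groups overlapped, and the change was -0.19 with an interval of -0.55 to 0.17 (adjusted p = 0.558 in limma). The planned fit gave -0.78 (adjusted p = 0.145) with PB-NICD 1 at 0.35 and PB-NICD 2 left out. Wfdc2 passed in 2 other planned settings, within slide 1 and without PB-NICD 3, in both of which PB-NICD 1 gave the only PB-NICD value.

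**Figure D3:**
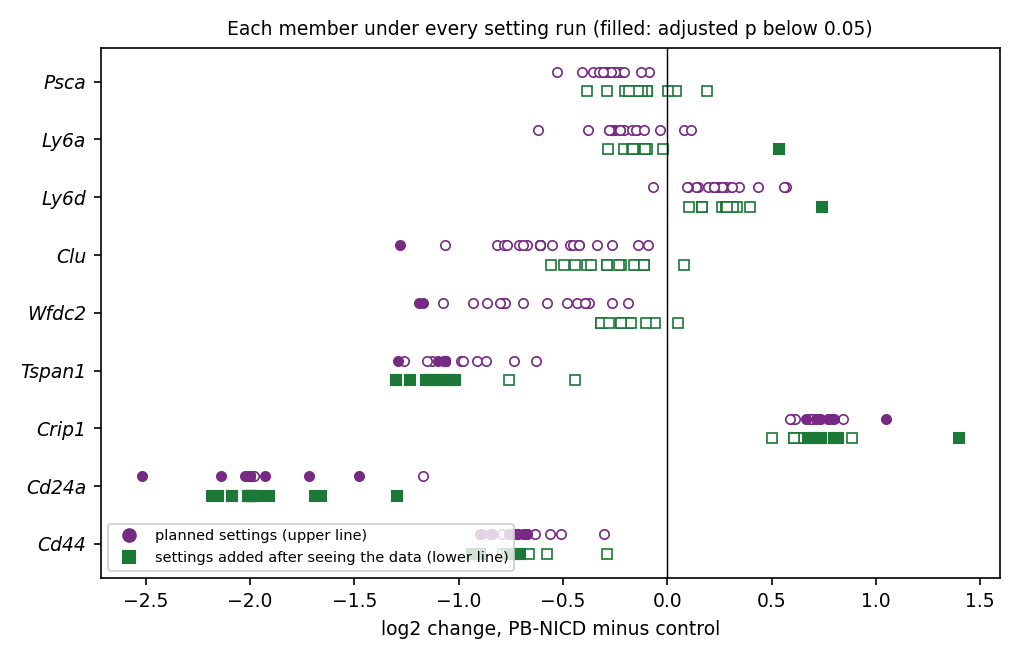
Change of each gene under every setting run, on the log2 scale, with the planned settings on the upper line (circles) and those added after seeing the data on the lower line (squares). Filled marks have an adjusted p below 0.05. Cd24a, Tspan1 and Cd44 lie below 0 and Crip1 above 0 in every setting that gave a value for the gene, and Psca, Ly6a, Ly6d, Clu and Wfdc2 reach both sides of 0.

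Other genes of proximal luminal cells split in both directions. Of 20 such genes, 19 could be tested under plain subtraction, 5 were called higher and 4 were called lower, and in the planned fit 1 of 14 was called, Cbr2. Krt4, a keratin of stratified and proximal epithelium, had log2 ratios of 1.55, 1.36 and 1.48 in PB-NICD samples and -0.10, -0.10, -0.07 and -0.24 in control samples, a change of 1.59 (adjusted p = 1.34e-05 in limma). On the log2 scale Cyp2f2 was higher by 1.81, Cxcl17 by 1.38, Lcn2 by 1.26 and Krt19 by 1.04. The sample signal of Lcn2 was well above background on 2 of 4 control arrays and that of Cxcl17 on 3 of 4, which limits these 2 changes. Cbr2, a carbonyl reductase, was lower, at -1.43 (adjusted p = 0.000251) and at -1.94 in the planned fit (adjusted p = 0.00158). Pigr, Gsto1 and Cp were lower at -0.87, -0.81 and -0.73.

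Of 12 other progenitor surface genes, 11 were tested under plain subtraction. Itga6, an integrin of basal cells, was lower at -0.56 (adjusted p = 0.0192), and it passed in the planned fit as well, at -0.66 (adjusted p = 0.0378). Lgr4, a receptor for R-spondins, was higher at 0.68 (adjusted p = 0.013) and did not pass in the planned fit (adjusted p = 0.786). In the Ly6 family, 1 of 18 tested genes passed under plain subtraction, Ly6e, at 0.58 (adjusted p = 0.0437), and none passed in the planned fit.

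Of 24 tetraspanins other than Tspan1, Tspan7, Tspan9 and Tspan33 were higher under plain subtraction and Tspan6 and Tspan13 were lower. Tspan7 had 3.40, 3.82 and 3.42 in PB-NICD samples and 1.16, 1.01, 1.36 and 1.04 in control samples, a change of 2.41 (adjusted p = 7.41e-06 in limma), and it passed in the planned fit with Tspan6 and Tspan13. Of 10 whey acidic protein genes other than Wfdc2, Wfdc3 was higher at 3.26 (adjusted p = 0.00029) and also passed in the planned fit, at 3.14 (adjusted p = 0.00759). Eppin was called higher too, but its signal in the control samples could not be told from background, so no fold is given. Among 3 tested LIM genes, Csrp1 and Csrp2 were lower, at -0.45 and -1.23, the opposite direction to Crip1. The remaining gene, Crip2, was at 0.15 and did not pass (adjusted p = 0.516 in limma). In the planned fit Csrp2 passed and Csrp1 did not (adjusted p = 0.0577). Of 11 genes of hyaluronan or Cd44 binding, Spp1, osteopontin, was lower at -0.76 (adjusted p = 0.00641), and none passed in the planned fit.

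**Figure D4:**
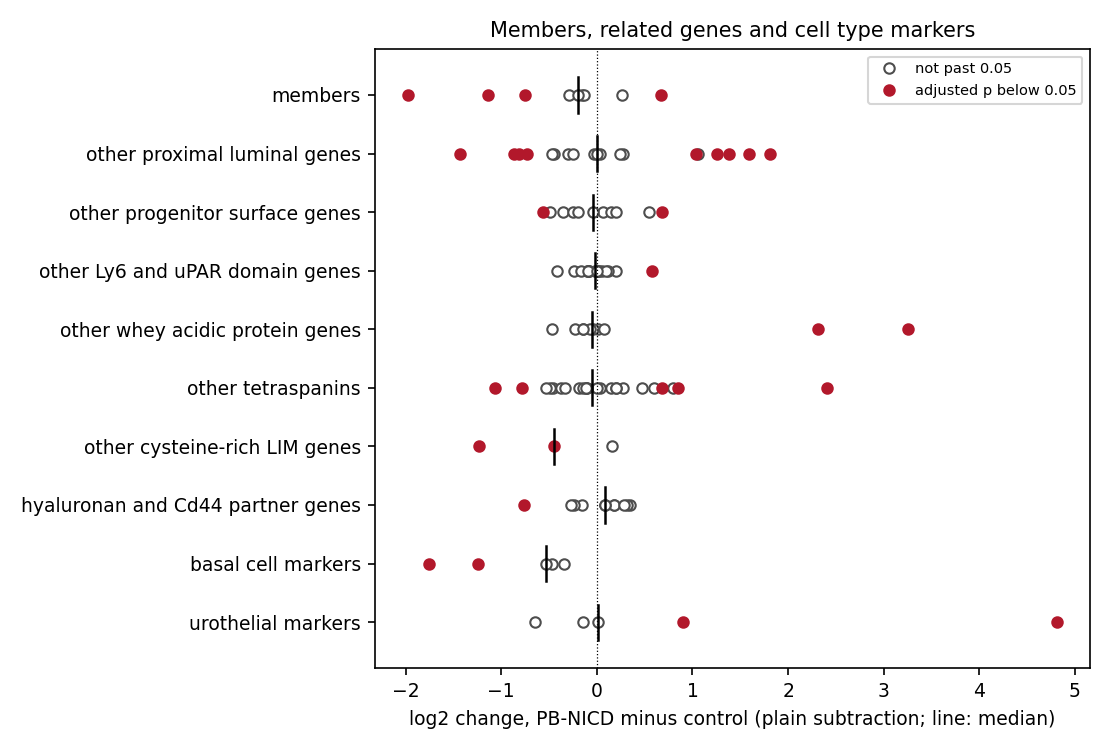
Change of each tested gene in the 9 members, 7 lists of related genes and 2 lists of markers, PB-NICD minus control, on the log2 scale after plain subtraction. Filled points have an adjusted p below 0.05 and lines mark the median of each list. The other proximal luminal genes lie on both sides of 0, from -1.43 to 1.81.

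Markers of other cell types moved beside these genes. Of 5 basal markers tested, Krt5 and Krt15 were called lower in both fits. Krt5 had 0.42, -0.14 and 0.17 in PB-NICD samples and 1.89, 2.23, 1.82 and 1.69 in control samples, and the mean log2 ratio over the 5 markers was 0.15 to 0.35 on PB-NICD arrays and 1.01 to 1.23 on control arrays. Of 5 urothelial markers, Upk1a and Upk3a were called higher under plain subtraction, Upk3a by 4.81 (adjusted p = 1.66e-05), and Upk1a by 0.90 (adjusted p = 0.00666). Upk2 at 0.01, Krt20 at -0.15 and Upk1b at -0.65 did not pass. The mean log2 ratio of the list was 2.07 to 2.39 on PB-NICD arrays and 1.10 to 1.48 on control arrays, and without Upk3a it was 1.47 to 1.92 on PB-NICD arrays and 1.40 to 1.87 on control arrays. Of 4 fibroblast markers, Dcn, a matrix protein, was lower at -0.69 under plain subtraction, while Col1a1 at 0.12, Lum at 0.09 and Pdgfra at -0.34 did not pass. Of 3 endothelial markers, Emcn was lower at -0.87, while Pecam1 at -0.03 and Cldn5 at 0.01 did not pass. In the planned fit Emcn did not pass (adjusted p = 0.0695) and Dcn was not tested. The 4 smooth muscle markers had changes of -0.40 to -0.65 under plain subtraction and none passed, and their mean log2 ratio was 2.24 to 2.77 on PB-NICD arrays and 2.76 to 3.12 on control arrays. No seminal vesicle, leukocyte or secretory luminal marker passed in either fit, and Pbsn, a secretory protein, was at 9.84 to 10.2 in PB-NICD samples and 10.1 to 11.8 in control samples. Tgm4 had the lowest p of the secretory luminal list under plain subtraction, with a change of -1.19 (adjusted p = 0.0788 in limma). It was at 8.34 to 8.38 in PB-NICD samples and 8.56 to 10.5 in control samples, and it was not tested in the planned fit. In bulk tissue, fewer cells of a type and less RNA per cell cannot be told apart. The part of these markers in the changes of Cd24a, Tspan1, Cd44 and Crip1 was not tested.

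The genes most like the 4 called members across the 7 arrays were taken from 13111 named genes, by Pearson correlation under plain subtraction. All points share the difference between the 2 groups. Cdr2, Agpat4 and Guk1 followed Cd24a at r = 0.991 to 0.994. Dmac1, Timm10b and Krt15 followed Tspan1 at r = 0.988 to 0.991. Tmem30a, Fkbp1a and Cd99 followed Cd44 at r = 0.980 to 0.991, and Hacd1, Cx3cl1 and Lsm2 followed Crip1 at r = 0.976 to 0.980.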

How the data were processed

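RNA of 3 PB-NICD and 4 control prostate samples was hybridised against a universal reference on 2-colour Agilent arrays without dye swap. Per the file headers, the deposited intensity columns are median spot and background signals from Agilent Feature Extraction 10.7.3.1, not normalized, the LogRatio column is a log10 ratio of red over green, and flag columns mark spots that are uneven or outlying among repeats, called uneven here. The authors' deposited table holds log2 values with a normalization not given in the sources used here. Its columns matched their own arrays at r = 0.991 or more after plain subtraction, in the direction of red over green.

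The planned fit used normexp (offset 50), loess within arrays, uneven spots set to missing, the brightest tested probe of a gene, and lmFit and eBayes in limma 3.58.1 under R 4.3.3, two-sided, with Benjamini-Hochberg adjustment over 16940 items and a threshold of 0.05. Mean spot signals were planned, and median signals were used because the files hold those. A probe needed a sample signal well above background on 3 arrays and 2 values per group. The fit by plain subtraction used the same steps with an offset of 50 and uneven spots kept. It was added after the planned fit and the values of the genes had been seen, because normexp fitted badly on PB-NICD 1. Its higher number of calls is not evidence that it is the better choice.

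The text names every member with all probes, and of each other list the genes past the threshold, otherwise the gene with the lowest p where one is named. The genes, lists and motifs were chosen with earlier results of these data known. Symbols were found for 24375 of 41174 probes through the RefSeq table of GRCm38.p6, and coordinates are given for promoters only. The fitting code was tested on simulated data. Replicate numbers were not taken as pairs in the planned fit. Deviations from the group means correlated at 0.27, -0.19 and 0.08 between samples of the same number. PB-NICD 1 was also at 0.30 with control 2, of its own slide, and at -0.33 with control 4, of the other slide. These values therefore cannot settle whether the numbers pair the samples. The number of arrays limits the precision. A result on a related gene is not reported here.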

Additional observations from a re-analysis of the deposited data

Results flagged for a closer look

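Cd24a on control 3, at a log2 ratio of 5.86 under plain subtraction, lay apart from the other 3 control samples, which lay at 5.58 to 5.62. The gap divided by the range of the group was 0.849, above Dixon's 95% critical value for 4 samples. Chance puts about 1 in 20 groups past such a limit, and 12 control groups were examined. Under the planned values the Cd44 probe A_51_P407053 was past the limit in its place, at 0.832, with control 3 at 0.11 below the other 3 controls. The Cd24a spot is among those marked as uneven, and the planned fit leaves it out. Without control 3 the change of Cd24a was -1.91 (adjusted p = 0.0012 in limma) under plain subtraction.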

How the results depend on the processing

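With the planned fit, 453 items were called, with 0 members higher and 1 lower. Items called, members higher and members lower were as follows where a count moved. No background subtraction gave 1541, 1 and 2, the software's processed signals 1130 and 1 higher, the values deposited by the authors 3713, 1 and 3, median centring 1 item and 0 lower, and the sample channel alone 287 and 1 higher. An offset of 10 gave 0 lower, and probes well above background on all 7 arrays, or uneven spots kept, gave 2 lower. Slide as a fixed block gave 1375, 1 and 3, slide as a random block 1031, 1 and 3, within slide 1 2039, 1 and 3, and within slide 2 945 items. The replicate block gave 161 items and 0 lower, and gave no value for Cd24a, Crip1 or Tspan1. Leaving out 1 array at a time gave 187 to 1180 items, 0 higher and 0 to 2 lower.

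Among settings chosen after seeing the data, plain subtraction gave 1375, 1 and 2, and with uneven spots kept 1632, 1 and 3. With those spots kept, the fixed slide block gave 2178, 1 and 3, within slide 1 3 lower, within slide 2 995 items and 2 lower, the replicate block 1314 items and 3 lower, and median centring 6099 items and 3 higher. Leaving out PB-NICD 1, 2 or 3 gave 1108, 921 and 1252 items, and leaving out control 1, 2, 3 or 4 gave 1314, 1317, 1601 and 1341, with 0 to 1 member higher and 2 to 3 lower.

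Fitted changes crossed 0 for Psca, Ly6a, Ly6d, Clu and Wfdc2, which pass in neither fit. Ly6a was at 0.0812 with median centring and 0.116 in the sample channel alone, and Ly6d at -0.0707 within slide 1. Under plain subtraction Psca was at 0.19 within slide 1 and 0.00154 without PB-NICD 2, and with median centring Psca was at 0.0399, Ly6a at 0.535, Clu at 0.0813 and Wfdc2 at 0.0517. Median centring moved the median of all items to 0.31 under plain subtraction and 0.12 in the planned fit. Relative to it, Psca, Clu and Wfdc2 did not turn, nor did Ly6a in the planned fit, and Ly6a under plain subtraction did. The cause of the other turns was not tested. The dim sample channel limits what can be seen of Psca and Cd44, whose sample signals were 93 to 210 over local backgrounds of 49 to 62.5 for the brightest probes. The same limit holds for Ly6d, Wfdc2 and Clu, whose lowest sample signals in control samples were 119, 136 and 158. Where a slide holds 1 PB-NICD array, that array is assumed to vary like the controls.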
